A study of Mus musculus with 10 samples.

Results

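The Hox cluster genes were followed across embryonic mouse gallbladder and cystic duct, the duct that joins the gallbladder to the rest of the bile duct system. Members were taken by symbol alone, as every gene named Hoxa, Hoxb, Hoxc or Hoxd plus a number, and not by their values. Of 39 such genes in the mouse reference gene table, 35 were named in the platform table. Of these, 33 had a probe set of their own, 48 probe sets in all, out of 18193 genes read in the whole series. Hoxb8 and Hoxd4 were covered only by probe sets that name a neighbouring Hox gene as well, and genes without a listed probe set were not analysed here.

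The series holds 10 samples of total RNA from embryos at 15 days post coitum, hybridised to Affymetrix arrays, in 5 groups of 2 biological replicates. Gallbladder was taken from wild type and from Sox17+/- embryos of both ICR, an outbred strain, and C57BL/6 (B6), an inbred strain, and cystic duct from ICR wild type embryos alone. Sox17+/- embryos carry 1 functional copy of Sox17, which encodes an endodermal transcription factor needed for gallbladder formation. No Sox17+/- cystic duct and no B6 cystic duct was analysed here. How many embryos went into a sample, and which litters they came from, is not given in the sources used here. The replicate spread is therefore that between these samples.

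Hox genes encode homeodomain transcription factors. They lie in a few clusters, and within a cluster the order of the genes along the chromosome follows the order of their expression domains from head to tail, so that low paralog numbers mark anterior and high numbers posterior domains. In the embryonic gut and its outgrowths, they are expressed in regional domains, largely in the mesoderm that forms the muscle and connective tissue of the wall. Genes with the same paralog number in different clusters are related by descent and often act in overlapping ways.

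The samples differed in ways that touch the Hox values. The 2 cystic duct samples correlated less well with each other (r = 0.898 across genes) than the pairs of gallbladder samples (0.966 to 0.996), and 3565 of 14696 tested genes differed between them by more than 1 log2 unit, against 18 to 609 in the gallbladder pairs. Cystic duct replicate 2 also had a narrower spread of deposited values, with an interquartile range of 2.75 against 3.46 to 3.85 in the other 9. Sox17 itself ran from 9.04 to 9.52 log2 in the 4 wild type gallbladder samples and from 7.65 to 8.03 in the 4 Sox17+/- gallbladder samples, with no overlap. It was 8.28 and 7.63 in cystic duct.

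Values below are quantile-normalised log2 signals, so that 1 unit is a doubling of signal. Each gene is read by its probe set with the highest mean, where types open to cross-hybridisation were used only if no other was present. Hoxa5 and Sox17 are thus not read by their brightest probe set. Genes whose mean over all 10 samples lay under the 30th percentile of all probe sets (4.47 log2) were too dim to be tested. Tests are limma's moderated test over all 14696 genes, and a gene is called at a Benjamini-Hochberg adjusted p under 0.05. In these whole-tissue samples, fewer cells of a type and less RNA per cell cannot be told apart.

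Of the 33 Hox genes, 20 passed the filter on dim genes and 13 did not. All 9 central genes (paralog groups 5 to 8) passed, as did 6 of 10 anterior genes (1 to 4) and 5 of 14 posterior genes (9 to 13). By cluster, 5 of 9 Hoxa, 7 of 9 Hoxb, 5 of 7 Hoxc and 3 of 8 Hoxd genes passed. The dim members were Hoxa4, Hoxa10, Hoxa11, Hoxa13, Hoxb1, Hoxb13, Hoxc10, Hoxc13, Hoxd1, Hoxd3, Hoxd10, Hoxd11 and Hoxd12, and no sample of any of them exceeded 4.94 log2. Hoxa11 lay just outside the filter with a mean of 4.38, and Hoxb7 just inside with 4.49. A dim probe set shows only a low signal for that probe, and levels of different genes were not ranked because probe sets differ in brightness.

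Across the 8 gallbladder samples of both strains and genotypes, Hox genes varied about as much as other genes. The highest and the lowest gallbladder sample were less than 1 log2 unit apart at 18 of the 20 tested Hox genes (90.0%), against 85.2% of all tested genes, and the median range was 0.63 for the 20 Hox genes against 0.53 for all. The exceptions were Hoxb4, with a range of 1.37, and Hoxa5, with 1.12. The 13 dim genes all stayed within 1 unit, at signals too low to show much range. Cystic duct samples stood apart at a few genes. At the probe sets used, both cystic duct samples lay below all 8 gallbladder samples at Hoxa5, Hoxb5, Hoxc4, Hoxc8 and Hoxd8. They lay above all 8 at Hoxb1, Hoxb7 and Hoxc10. Of these, Hoxb1 and Hoxc10 are dim, and Hoxb7 passed the filter only through cystic duct. The share of all genes with both cystic duct samples outside the gallbladder range was not counted, so these genes are only listed.

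**Figure D1:**
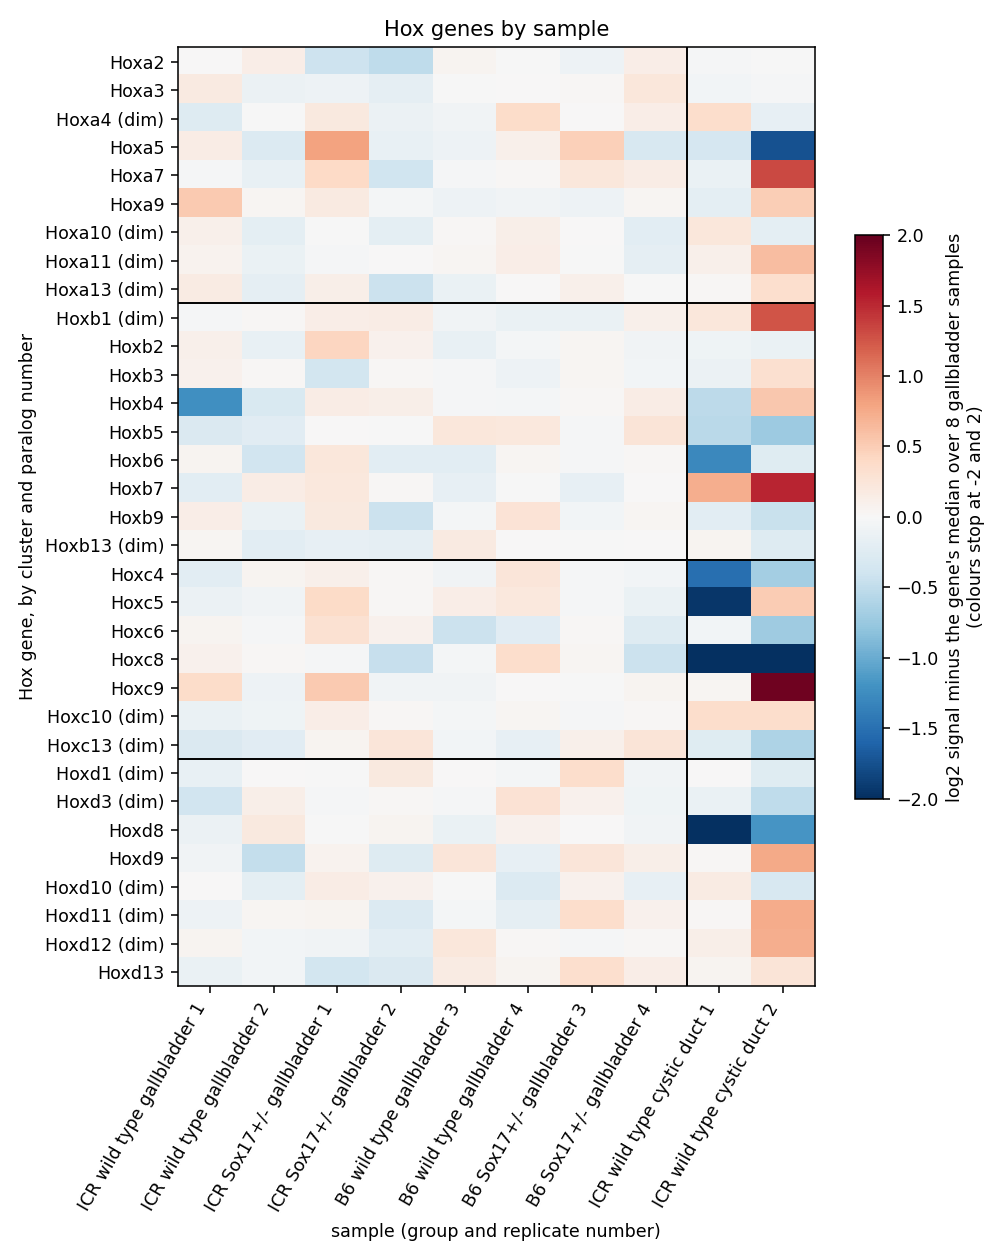
Each row is 1 of the 33 Hox genes, by cluster and paralog number, and each column is 1 sample. Colour is the log2 signal minus that gene's median over the 8 gallbladder samples, and "dim" marks the 13 genes that were not tested. The 8 gallbladder columns are pale, with Hoxb4 in ICR wild type replicate 1 as the darkest cell, and the darkest cells lie in the 2 cystic duct columns.

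The first comparison asked how the cystic duct differed from the gallbladder it drains, in ICR wild type embryos. Hoxc8, Hoxd8 and Hoxc4 were lower in cystic duct and Hoxb7 was higher; the other 16 tested Hox genes did not pass. These 4 of 20 genes make 20.0%, beside 14.3% of all 14696 tested genes called in the same comparison (2107 genes), so the share of Hox genes called was close to the background. Hoxb7 passed the filter on dim genes only through cystic duct, and without it 3 of 19 were called (15.8%). The fitted difference of Hoxc8 was the 3rd lowest of all 14696 tested genes. Hoxd8 ranked 208th from the lowest end and Hoxc4 944th, and Hoxb7 ranked 819th from the highest.

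Hoxc8 and Hoxd8 belong to the same paralog group in different clusters, and Hoxc4 lies in the same cluster as Hoxc8. Hoxc8 is best known for its role in the thoracic skeleton and in motor neurons that supply the forelimb. Its log2 signal was 8.22 and 8.16 in ICR wild type gallbladder, 8.12 and 7.68 in ICR Sox17+/- gallbladder, 8.11 and 8.48 in B6 wild type gallbladder, and 8.17 and 7.71 in B6 Sox17+/- gallbladder. In cystic duct it was 3.91 and 5.52. Both cystic duct samples lay more than 2 log2 units below every gallbladder sample, although they differed from each other by 1.61. The fitted difference from ICR wild type gallbladder was -3.48 log2 (SE 0.47, n = 2 against 2, 11.1-fold lower, limma adjusted p = 0.00456). Its 95% interval ran from -4.56 to -2.39. Here and for the genes below, the SE, interval and p use 1 spread shared by all 5 groups. The Hoxc8 standard deviation was 1.14 in cystic duct and 0.048 to 0.328 in the gallbladder groups. The shared spread thus understates that of cystic duct. With only the 2 compared groups, the SE was 0.61 and the limma adjusted p 0.156. Cystic duct replicate 1, at 3.91, lay under the filter of 4.47, in the range where signals are too dim to be ordered, so the fold and the rank are values of the fit and the true size is uncertain. The gene has 1 probe set, so no second probe set was at hand to compare.

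Hoxd8 showed the same order at a smaller size. Its log2 signal was 7.97 and 8.28 in ICR wild type gallbladder, 8.08 and 8.15 in ICR Sox17+/- gallbladder, 7.96 and 8.17 in B6 wild type gallbladder, 8.11 and 8.02 in B6 Sox17+/- gallbladder, and 5.99 and 6.91 in cystic duct. The 8 gallbladder samples spanned only 0.32, and both cystic duct samples lay at least 1 unit below them. The fitted difference was -1.67 log2 (SE 0.29, n = 2 against 2, 3.19-fold lower, limma adjusted p = 0.0103). A second Hoxd8 probe set did not show it: this one read 6.67 and 7.42 in ICR wild type gallbladder and 6.09 and 7.82 in cystic duct, a difference of -0.09. With the mean of both probe sets, the Hoxd8 difference was -0.88 and the call was lost (adjusted p = 0.172).

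Hoxc4, an anterior gene of the C cluster, read 7.33 and 7.59 in ICR wild type gallbladder, 7.63 and 7.56 in ICR Sox17+/- gallbladder, 7.47 and 7.78 in B6 wild type gallbladder and 7.51 and 7.48 in B6 Sox17+/- gallbladder. In cystic duct it read 6.02 and 6.85, below all 8. The fitted difference was -1.02 log2 (SE 0.28, n = 2 against 2, 2.03-fold lower), and it passed narrowly (limma adjusted p = 0.0495).

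Hoxb7 went the other way. This gene of the trunk-forming central group read 4.07 and 4.42 in ICR wild type gallbladder, 4.49 and 4.30 in ICR Sox17+/- gallbladder, 4.12 and 4.27 in B6 wild type gallbladder, and 4.11 and 4.29 in B6 Sox17+/- gallbladder. Cystic duct read 5.01 and 5.80, above all 8. The fitted difference was 1.16 log2 (SE 0.27, n = 2 against 2, 2.24-fold higher, limma adjusted p = 0.03). Its gallbladder mean of 4.26 lay under the filter of 4.47, so Hoxb7 was tested only because cystic duct was bright, and it was the only one of the 20 of which this was true; its call is therefore not counted as support. A probe set shared with Hoxb8 read 4.40 and 4.10 in ICR wild type gallbladder and 3.95 and 3.64 in cystic duct, which is the opposite direction. All of these values lay under the filter of 4.47.

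**Figure D2:**
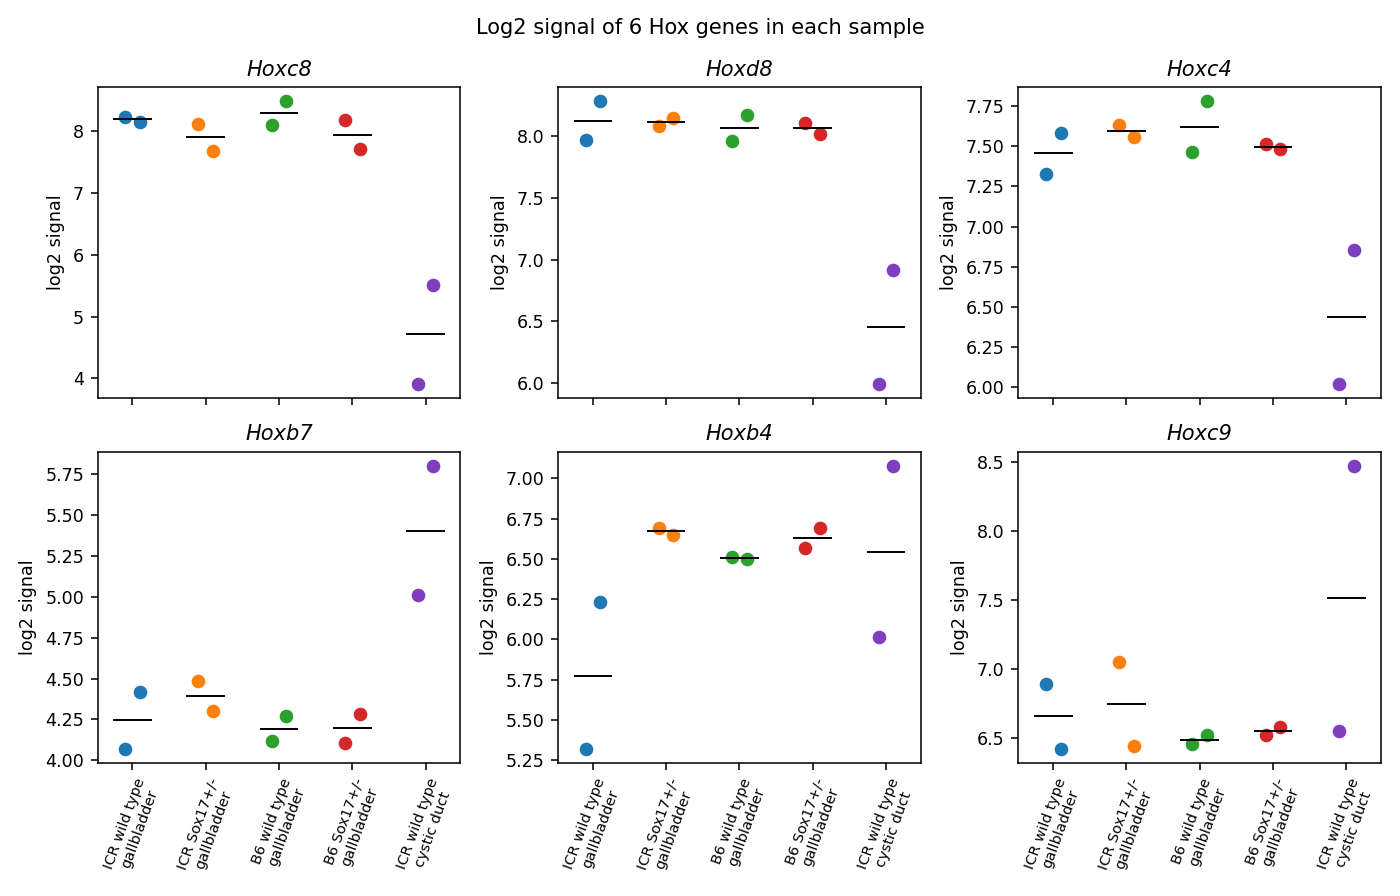
Points are the log2 signal of 6 Hox genes in each sample, 2 per group, and bars are group means; each panel has its own axis, which does not start at 0. At Hoxc8, Hoxd8 and Hoxc4 both cystic duct points lie below all 8 gallbladder points, at Hoxb7 both lie above, Hoxb4 has a low ICR wild type gallbladder point at 5.32, and at Hoxc9 a single cystic duct point, at 8.47, lies above the rest.

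The calls depended on how the fit was made and on single samples. No gene of the 14696 passed, and so no Hox gene, when the fit held only the 2 compared groups or when array weights were used; 3 Hox genes had an unadjusted limma p under 0.05 in each of these, and Hoxc8 had an adjusted p of 0.156 and 0.0998. Without cystic duct replicate 1 the Hoxc8 difference was -2.67, and without replicate 2 it was -4.28. Each of those fits keeps 1 cystic duct sample, so its spread comes from gallbladder alone and its calls are not counted. Without any one gallbladder sample, Hoxc4 and Hoxb7 no longer passed, and Hoxd8 was also lost without ICR wild type replicate 2.

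The other members of the C cluster show how uneven the cluster was. Hoxc5 was 4.42 in cystic duct replicate 1 and 6.87 in replicate 2, on either side of the ICR wild type gallbladder samples at 6.25 and 6.29, a fitted difference of -0.62 (SE 0.65, adjusted p = 0.531). For Hoxc6, cystic duct read 6.56 and 5.90 against 6.67 and 6.60 (-0.41, SE 0.26, adjusted p = 0.314). Its other probe sets gave larger differences, of -1.53 and -1.45. Hoxc9, next to Hoxc8 in the cluster, read 6.55 and 8.47 in cystic duct against 6.89 and 6.42 in ICR wild type gallbladder, a difference of 0.86 (SE 0.55, adjusted p = 0.311) that came from replicate 2 alone. Along the cluster, the fitted differences were thus -1.02, -0.62, -0.41, -3.48 and 0.86 from Hoxc4 to Hoxc9, with no steady trend from anterior to posterior.

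Members of each paralog group were compared by the sign of their differences. At the probe sets used, the tested members of each central group had the same sign. Hoxc8 and Hoxd8 fell, Hoxb6 and Hoxc6 had -0.60 and -0.41, and Hoxa7 had 0.68 beside Hoxb7, of which only Hoxb7 was called. Group 7 is not counted as support, since Hoxb7 passed the filter only through cystic duct. The Hoxa7 value came from cystic duct replicate 2, at 1.41 from the ICR wild type gallbladder mean, against -0.05 in replicate 1. In group 9 the signs were mixed, with -0.13 for Hoxa9, -0.33 for Hoxb9, 0.86 for Hoxc9 and 0.67 for Hoxd9, and none passed. A second Hoxa9 probe set gave -1.08, with cystic duct at 3.86 and 5.04, below its 8 gallbladder values of 5.40 to 6.74. In group 4, Hoxb4 had 0.77 (SE 0.39, adjusted p = 0.218) where Hoxc4 fell. In group 5, Hoxa5, which patterns the lung and gut mesenchyme, had -0.97 (SE 0.51, adjusted p = 0.232), Hoxb5 had -0.38 (SE 0.19, adjusted p = 0.21) and Hoxc5 had -0.62. The 95% interval of Hoxa5, from -2.16 to 0.22, leaves room for a change as large as that of Hoxd8. A second Hoxa5 probe set, of a type open to cross-hybridisation, gave 0.81, the opposite sign. Further Hoxc5 probe sets gave -0.71 and 0.15, so the shared sign in group 5 depended on the probe sets used.

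Anterior genes of paralog groups 2 and 3 gave small differences at the probe sets used. Hoxa2 and Hoxb2, which pattern the hindbrain and the branchial arches, differed between cystic duct and gallbladder by -0.08 and -0.09, and Hoxa3 and Hoxb3 by -0.06 and 0.05, with standard errors from 0.18 to 0.22. Further Hoxa3 probe sets gave 0.79, 0.11 and 1.00, and a second Hoxb3 probe set gave 0.51. The Hoxa3 probe sets with 0.11 and 1.00 had means of 4.4 and 3.8, under the filter. The 0.79 and 0.51 came mainly from cystic duct replicate 2, at 6.92 and 7.51, against 5.30 and 6.61 in replicate 1. By axial class, the median difference was -0.07 over 6 anterior genes, -0.60 over 9 central genes and 0.24 over 5 posterior genes, and the number of genes below 0 was 4, 7 and 2. Over all 20, the median was -0.11, with 13 below 0 and 7 above. Over all tested genes the median was -0.03, and 51.9% lay below 0.

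Individual cystic duct samples bear on how these medians can be read. At 11 of the 20 genes both cystic duct samples lay below the mean of ICR wild type gallbladder, at 4 both lay above, and at 5 they lay on opposite sides. The same shares over all tested genes were not counted. The 2 samples differed by more than 1 log2 unit at 7 of the 20 (Hoxa5, Hoxa7, Hoxb4, Hoxb6, Hoxc5, Hoxc8 and Hoxc9), which no gallbladder pair did at any Hox gene. Hoxb6 was low in replicate 1 (4.95 against 6.29 and 5.85 in gallbladder), and Hoxa7 was high in replicate 2 (8.03 against 6.69 and 6.56). Only 8 of the 20 genes had a 95% interval within 1 log2 unit on either side of 0, so for the other 12 the interval held differences of more than a doubling or halving of signal.

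**Figure D3:**
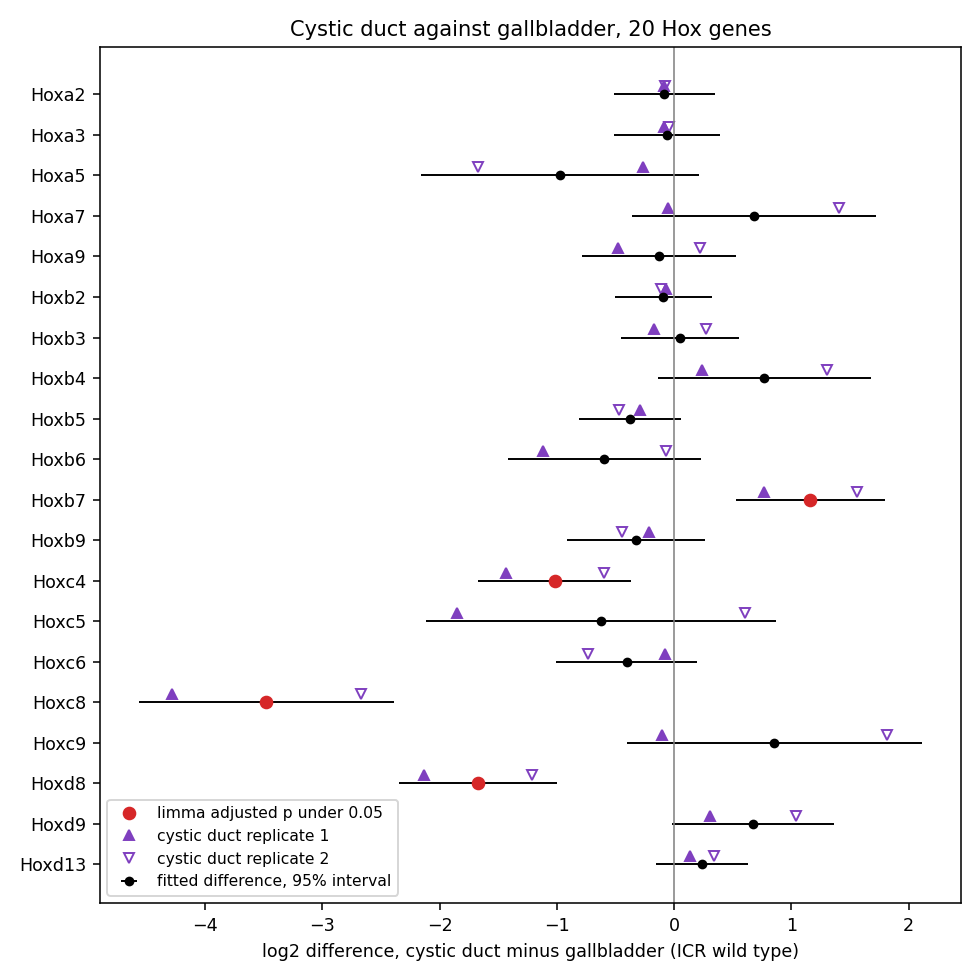
Black points and bars are the fitted log2 difference (ICR wild type cystic duct less gallbladder) with its 95% interval, for the 20 tested Hox genes; red points had a limma adjusted p under 0.05. Triangles are each cystic duct sample minus the ICR wild type gallbladder mean; they lie far apart at Hoxc5 and Hoxc9 and far left together at Hoxc8.

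Promoter sequences are shown for the called genes that have an entry in the promoter table from RefSeq (build GRCm38.p6), because they fell together; Hoxc8 and Hoxb7 are named only. Each is the 250 bases before the annotated start, on the plus strand, with the letters of the homeodomain core motif TAAT, or ATTA where it lies on the opposite strand, in capitals.
Hoxc4, chr15:103034145-103034394: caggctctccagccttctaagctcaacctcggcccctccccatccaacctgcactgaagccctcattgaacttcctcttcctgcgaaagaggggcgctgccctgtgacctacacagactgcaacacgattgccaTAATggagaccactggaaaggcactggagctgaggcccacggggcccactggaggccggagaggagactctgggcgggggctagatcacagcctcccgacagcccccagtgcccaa
Hoxd8, chr2:74704365-74704614: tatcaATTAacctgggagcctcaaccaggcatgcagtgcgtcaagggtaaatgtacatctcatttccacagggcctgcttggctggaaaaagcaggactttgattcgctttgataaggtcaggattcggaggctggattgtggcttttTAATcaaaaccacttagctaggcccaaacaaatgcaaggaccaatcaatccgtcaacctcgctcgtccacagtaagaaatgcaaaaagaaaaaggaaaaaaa
The motif begins 116 bases before the start in Hoxc4, and 245 and 102 bases before it in Hoxd8. Searched on both strands, TAAT was present in 54.9% of 32851 promoter windows of the same length and in 18 of 24 windows of the 22 Hox genes that matched, so its presence does not mark these genes out. A Pbx-Hox motif (TGATNNAT, 7.68% of all windows), a Cdx motif (TTTATG, 10.8%) and the TATA box (TATAAA, 12.4%) were not found in either window, and were present in 4, 5 and 4 of the 24 Hox windows. No match says only that these letters are not in this window.

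Cell type markers moved with the cystic duct comparison. Of 18 hepatocyte genes, 15 were called higher in cystic duct (median difference 3.45), and the mean log2 signal of the list was 12.3 and 11.9 in cystic duct against 9.08 to 10.6 in the 8 gallbladder samples. Of 14 smooth muscle genes, 10 were called lower (median -1.80); the list mean was 8.32 and 9.12 against 10.1 to 10.5. In the mesenchyme list, 6 of 15 were called lower (median -0.66), and its mean was 10.8 and 11.4 against 11.3 to 11.7. Biliary epithelial genes were called higher in 2 and lower in 3 of 17 (median -0.06). The list mean was 9.14 and 9.18 in cystic duct against 9.09 to 9.67 in gallbladder. Krt18 and Cdh6 were higher, at 0.59 and 1.28, and Onecut1 and Muc1 were lower, at -1.54 and -1.13. Onecut1 read 7.23 and 7.83 in cystic duct, below ICR wild type gallbladder (9.05 and 9.08) but above B6 gallbladder (5.59 to 6.66). Muc1 in cystic duct lay below all 8 gallbladder samples, and Krt18 and Cdh6 overlapped with some of them. Krt19, a keratin of bile duct epithelium, was the other lower gene and read 10.3 and 10.2 in ICR wild type gallbladder and 8.94 and 9.23 in cystic duct. In the same comparison, erythroid genes were called higher in 6 and lower in 1 of 11. Cystic duct replicate 1 had the lower smooth muscle and mesenchyme means. Among the tested Hox genes, Hoxa5, Hoxb2, Hoxb5, Hoxb9 and Hoxc6 were lower in replicate 2. All the others, with Hoxc8, Hoxd8 and Hoxc4 among them, were lower in replicate 1, some by very little. The part of cell makeup in the Hox differences was not tested.

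**Figure D4:**
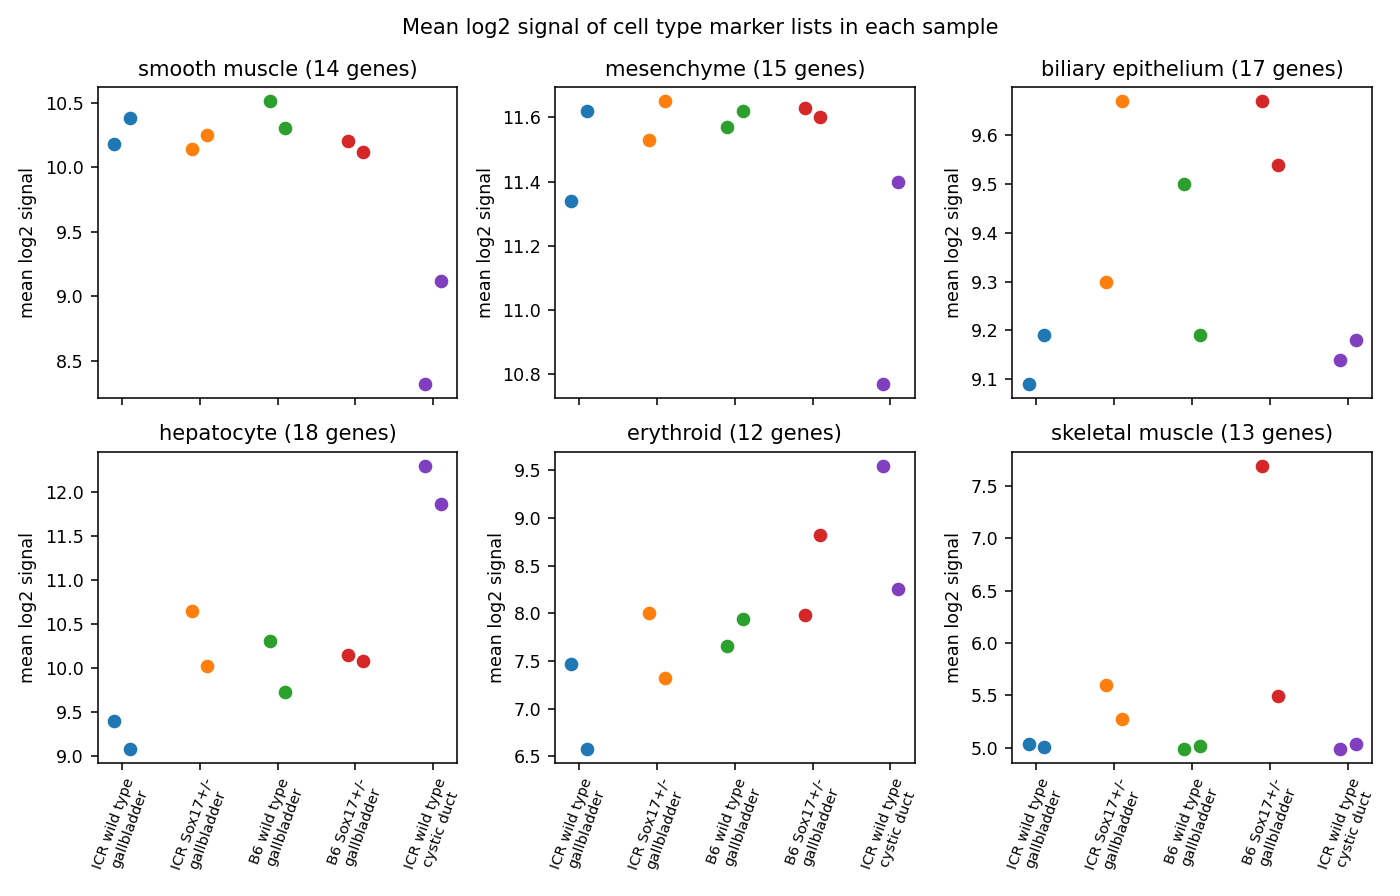
Points are the mean log2 signal of 6 marker gene lists in each sample, 2 per group; each panel has its own axis, which does not start at 0. Both cystic duct samples lie below all gallbladder samples for smooth muscle and above them for hepatocyte genes, and B6 Sox17+/- gallbladder replicate 3 stands alone for skeletal muscle genes.

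Genes that work with or upstream of Hox proteins were read from lists, and 14.3% of all genes were called in this comparison. The calls in the first lists, 1 of 7 and 2 of 15, are near that share. Of the 7 tested Hox cofactor genes, which encode Pbx and Meis class partners that bind DNA with Hox proteins, 1 was called: Pbx3 read 10.7 and 10.9 in ICR wild type gallbladder and 10.1 and 10.3 in cystic duct (-0.67, SE 0.14, adjusted p = 0.0167). Among 15 genes of retinoid signalling, which sets Hox domains in many embryonic tissues, 1 fell and 1 rose. Aldh1a1, an enzyme that makes retinoic acid, fell by 1.51 log2 (SE 0.30, limma adjusted p = 0.0158), to below all gallbladder samples. Rxrb, a retinoid receptor, rose by 1.29 (SE 0.34, limma adjusted p = 0.0409). It read 7.08 and 8.11 in ICR wild type gallbladder and 8.54 and 9.24 in cystic duct. The other gallbladder samples read 8.53 to 8.75, so cystic duct replicate 1 lay within their range. None of 24 Polycomb and Trithorax genes, which keep Hox genes silent or active, was called, none of 4 ParaHox and neighbouring genes was, and neither was Hoxb5os, the only tested noncoding gene of the clusters (0.01, SE 0.25).

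Among 16 tested factors of regional mesenchyme, 4 fell and 1 rose in cystic duct, and 11 did not pass. Foxf1, a factor of gut mesoderm, read 10.9 and 11.0 in ICR wild type gallbladder and 9.12 and 9.13 in cystic duct (-1.81, SE 0.13, adjusted p = 0.00138). Meox2 fell by 1.85 (SE 0.27), Sox11 by 1.73 (SE 0.23) and Osr1 by 1.60 (SE 0.41), with limma adjusted p of 0.00579, 0.00456 and 0.0385. Sox11 read 8.73 and 8.91 in cystic duct and 7.8 to 8.92 in B6 gallbladder. Osr1 read 7.5 and 7.09 in cystic duct and 6.89 to 8.19 in B6 gallbladder. These 2 genes thus did not set cystic duct apart from B6 gallbladder. In cystic duct, Foxf1 and Meox2 lay below all gallbladder samples of both strains, and Isl1 lay above them. Isl1, a LIM homeodomain factor, read 4.31 and 4.55 in gallbladder and 5.38 and 5.04 in cystic duct and rose by 0.78 (SE 0.20, adjusted p = 0.0357). All 16 together had a median of -0.01, with 8 on each side of 0.

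The next comparison asked whether loss of 1 copy of Sox17 changed Hox levels in gallbladder. No Hox gene was called over both strains, within ICR, or within B6 by limma, and none in the difference of the genotype effects between strains. The number with an unadjusted p under 0.05 was 0, 1, 0 and 0. Few genes of any kind were called in these comparisons: 0.0544% of all tested genes over both strains, 0.0068% in ICR, 0.0068% in B6 and 0% for the difference between strains, so 0 calls among 20 genes is near that background. Sox17 itself was not called, although it was 2.64-fold lower in Sox17+/- over both strains (limma adjusted p = 0.0542). Its limma adjusted p was 0.219 in ICR and 0.799 in B6. Over both strains, 16 of 20 Hox genes had a 95% interval within 1 log2 unit on either side of 0. Calls and intervals in gallbladder use 1 spread per gene, shared by all 5 groups, so the cystic duct pair enters them. The median absolute difference between replicates over all tested genes was 0.543 in cystic duct, against 0.099 to 0.192 in the gallbladder pairs. The median Hox difference over both strains was 0.05, beside -0.001 over all tested genes.

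Hoxb4, which acts in the hindbrain, neck vertebrae and blood stem cells, had the largest positive value. It read 5.32 and 6.23 in ICR wild type gallbladder against 6.69 and 6.65 in ICR Sox17+/- gallbladder, and 6.51 and 6.50 against 6.57 and 6.69 in B6. The Sox17+/- samples lay above the wild type samples within each strain, with 1 low ICR wild type sample. The difference over both strains was 0.51 (SE 0.28, adjusted p = 1.0), 0.28 without ICR wild type replicate 1 and 0.74 without ICR wild type replicate 2, and a second Hoxb4 probe set gave -0.01. Hoxa5 had 0.23 (SE 0.36) and Hoxc6 0.19 (SE 0.18), the next largest, and neither passed.

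Hoxc8 had the largest negative value of the genotype comparison, at -0.32 (SE 0.33, adjusted p = 1.0). It was -0.29 in ICR and -0.35 in B6, with 95% intervals that reached from -1.38 to 0.80 and from -1.44 to 0.74. The 2 comparisons with ICR wild type gallbladder share those samples, so the Hoxc8 difference in cystic duct and that in ICR Sox17+/- gallbladder are not independent. In ICR both Sox17+/- samples lay below both wild type samples, and in B6 the groups overlapped. Hoxa2 followed at -0.27 (SE 0.13). It read 5.81 and 5.94 in ICR wild type gallbladder and 5.39 and 5.30 in ICR Sox17+/- gallbladder, without overlap (-0.53, SE 0.19, unadjusted p = 0.0219, adjusted p = 0.89 by limma). In B6, Hoxa2 read 5.87 and 5.80 against 5.70 and 5.94 (-0.01), and the difference between strains was 0.52 (SE 0.26, adjusted p = 1.0). Hoxb9 completed the 3 lowest at -0.12 (SE 0.18).

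Cell type lists beside the genotype comparison had no call either. B6 Sox17+/- gallbladder replicate 3 carried skeletal muscle signal, with a list mean of 7.69 against 4.99 to 5.60 in the other 9 samples. Between it and its partner, 0 of the 20 tested Hox genes differed by more than 1 log2 unit. Only 98 of all 14696 tested genes did, so 0 among 20 is near that background. The part of skeletal muscle signal in the Hox values was not tested. In ICR, the hepatocyte list was higher in Sox17+/- (10.6 and 10.0) than in wild type gallbladder (9.40 and 9.08), which was not tested against the Hox values. Pdx1, a ParaHox gene of pancreas and duodenum that lies outside the Hox clusters, read 4.20, 4.33, 4.81 and 4.74 in the wild type gallbladder samples and 5.44, 6.30, 6.13 and 5.81 in the Sox17+/- ones. These did not overlap, at 1.40 log2 (SE 0.22), but the gene did not pass (limma adjusted p = 0.117).

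The last comparison set B6 against ICR gallbladder over both genotypes. No Hox gene was called by limma, with 1 at an unadjusted p under 0.05, beside 1.35% of all tested genes called. The median Hox difference was 0.04, against 0.05 over all genes, and 18 of 20 had a 95% interval within 1 log2 unit on either side of 0. Hoxd13, the last gene of its cluster, which acts in digits and in the hindgut outlet, had the lowest p. It read 4.37, 4.45, 4.13 and 4.21 in the ICR samples and 4.65, 4.55, 4.83 and 4.63 in B6, without overlap (0.37, SE 0.12, adjusted p = 0.231). Its ICR mean of 4.29 lay under the filter, and a second probe set, whose mean of 3.91 was also under it, gave -0.10. Hoxb4 at 0.35 (SE 0.28) and Hoxb5 at 0.30 (SE 0.13) came next, and Hoxc6 at -0.33 (SE 0.18), Hoxa9 at -0.24 and Hoxc9 at -0.18 were the 3 lowest. Among the related lists, Sox11 and Osr1 were lower in B6 by 1.57 and 1.60 log2 (adjusted p = 0.00881 and 0.0471), and Mtf2, a Polycomb partner, by 1.37 (adjusted p = 0.0495). Of 2 measures of RNA quality, 1 moved with strain. The 3' less 5' log2 signal of Gapdh was 0.0 to 0.30 in the 4 B6 samples and 0.43 to 0.93 in the 4 ICR gallbladder samples. That of beta-actin overlapped, at 0.92 to 1.20 in B6 and 0.56 to 1.40 in ICR gallbladder. The part of RNA quality in the strain differences was not tested.

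**Figure D5:**
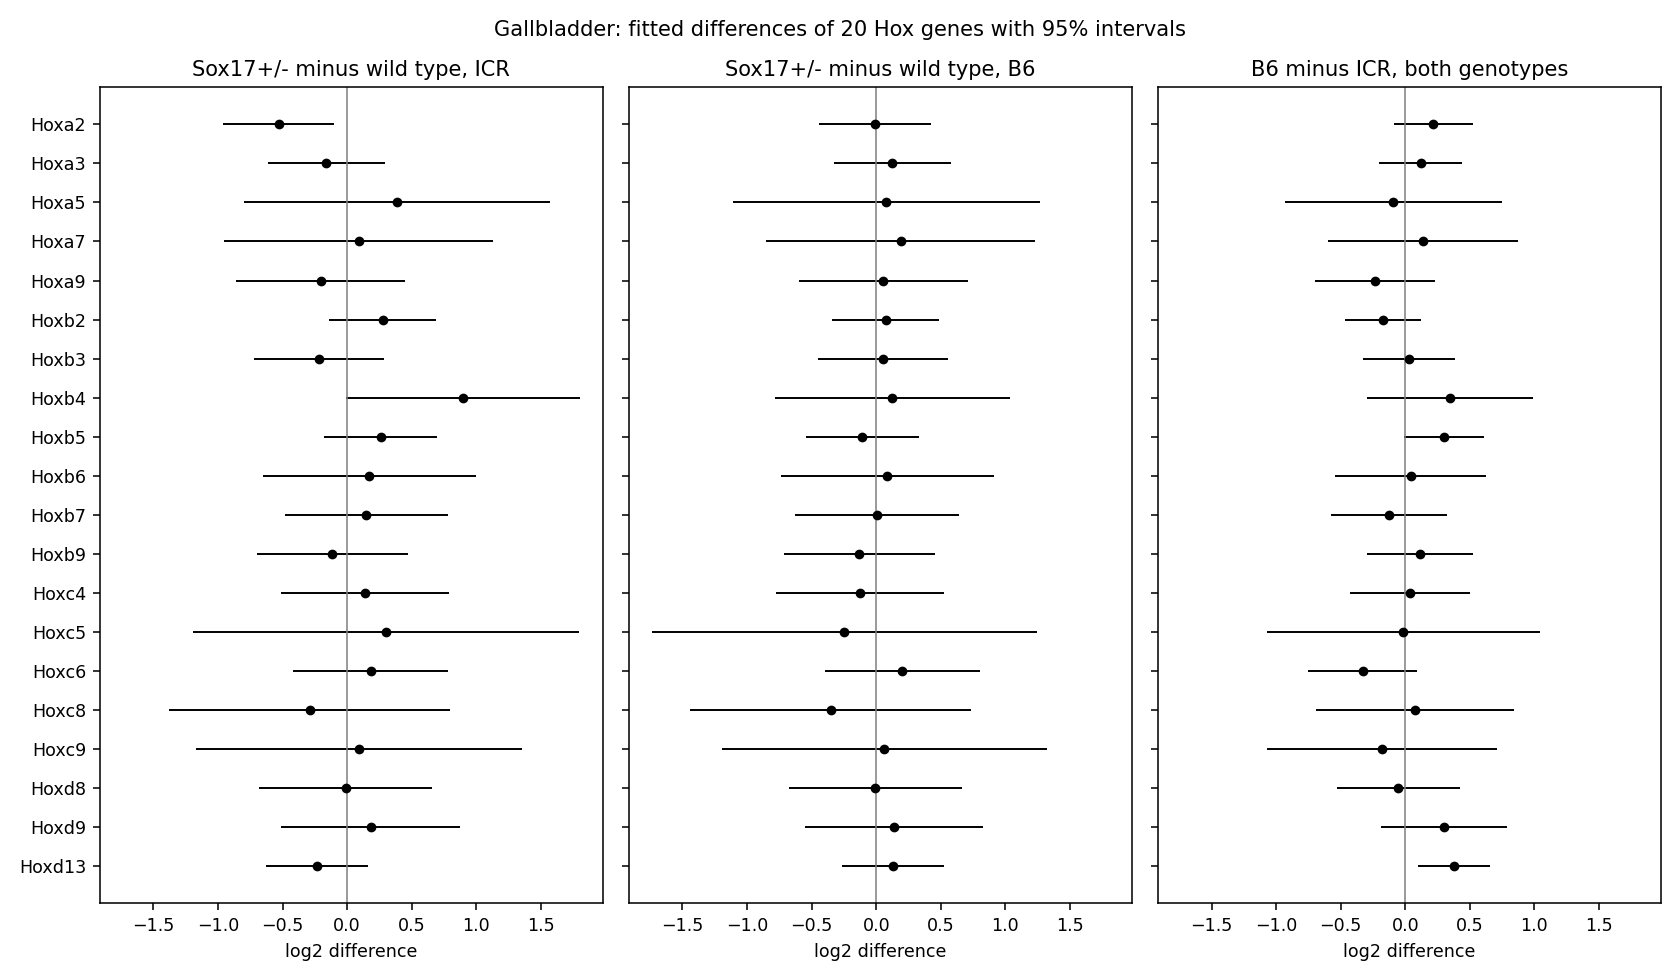
Points and bars are fitted log2 differences with 95% intervals for the 20 tested Hox genes in gallbladder, as Sox17+/- minus wild type in ICR, the same in B6, and B6 minus ICR over both genotypes. No gene was called in any panel; Hoxb4 in ICR, at 0.90, has the largest value of the genotype panels.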

How the data were processed

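Arrays of 10 samples were read from a table of log2 signals per probe set deposited by the authors; per the values (2.20 to 15.15) the scale is log2, and how background was corrected and signals normalised was not given in the sources used here. Per the labels' protocols, cRNA was made from 10 ug of Trizol-extracted total RNA. Groups come from the titles and label fields; stage stands under the genotype tag and genotype under the stage tag, and each was read by its value. The Hox genes, gene lists and comparisons were chosen with earlier results of these data known.

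Of 45101 probe sets, 64 controls were left out and 34945 name 1 gene. Sample medians ran from 5.51 to 6.07, and samples were quantile normalised here. A gene was read by its brightest probe set (cross-hybridising types only where no other was present), and genes under the 30th percentile of mean signal were dropped, leaving 14696. limma 3.58.1 (R 4.3.3) was fitted with 1 mean per group over all 10 samples and a mean-variance trend (5 residual and 7.95 total degrees of freedom), and checked on simulated data. With 2 samples per group, this number limits the precision. Named genes were the called Hox genes and the 3 highest and 3 lowest in the cystic duct, genotype and strain comparisons. Promoters were matched by symbol in the RefSeq table. A protein table was not used here, so protein sequences are not shown. No label says that a replicate number marks a litter; same-numbered wild type and Sox17+/- samples deviated together (r = 0.377 in ICR, 0.217 in B6), wild type gallbladder and cystic duct less so (0.075). Alternatives were the deposited values, median centring, other filters, averaging all probe sets of a gene, array weights, fits on the compared groups only, a replicate block and leaving out each sample.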

Additional observations from a re-analysis of the deposited data

Results flagged for a closer look

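Hoxc5, the first central gene of the C cluster, had genotype differences of opposite sign in the 2 strains at the probe set used. In ICR gallbladder the wild type samples read 6.25 and 6.29 and the Sox17+/- samples 6.75 and 6.39, a difference of 0.30; in B6 the wild type samples read 6.48 and 6.57 and the Sox17+/- samples 6.33 and 6.23, a difference of -0.25. The groups did not overlap in either strain. Hoxc5 was picked for this very pattern from the 20 tested Hox genes, so the lack of overlap is not counted as support. How many of all tested genes have the same pattern was not counted. The spread used to test Hoxc5 also takes in the cystic duct pair, at 4.42 and 6.87. The test of the difference itself did not pass (-0.55, SE 0.91, limma adjusted p = 1.0), and 2 further Hoxc5 probe sets did not show opposite directions: they gave -0.17 and -0.13 in ICR and -0.14 and -0.46 in B6.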

How the results depend on the processing

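For cystic duct against gallbladder, 4 Hox genes were called, 4 with the values as deposited and with arrays centred on their medians, 0 with array weights and 0 with only the compared groups (0 genes in all in both; 3 Hox genes at an unadjusted limma p under 0.05 in each), and 1 to 12 leaving out 1 sample. The call held in 17 of 19 alternatives for Hoxc8, 15 of 19 for Hoxd8, 8 of 18 for Hoxb7 and 7 of 19 for Hoxc4. The median Hox difference was -0.31 with the values as deposited and -0.286 to -0.054 leaving out 1 sample, and Hoxc9 ran from -0.103 (without cystic duct replicate 2) to 1.813. With a replicate block, 3 Hox genes were called in cystic duct (Hoxc4 was lost, adjusted p = 0.0679) and 0 in the paired genotype comparisons, so the block changed no other Hox call there. No Hox gene was called for genotype under any alternative. The median in ICR was -0.056 with the values as deposited and -0.032 to 0.251 leaving out 1 sample, and that of the difference between strains 0.12 and -0.29 to 0.13. Over both strains, leaving out 1 sample gave -0.005 (without ICR Sox17+/- replicate 1) to 0.469 for Hoxa5 and -0.282 to 0.036 (without ICR Sox17+/- replicate 2) for Hoxb9, and averaging all probe sets of a gene turned Hoxc6 to -0.068. For strain, 1 Hox gene (Hoxd13) was called with array weights, with only the compared groups and without either cystic duct sample (adjusted p = 0.0438 to 0.0449), and 0 to 1 leaving out 1 sample; with all probe sets averaged, Hoxb4 turned to -0.10 and Hoxa9 to 0.12. The cause of these shifts was not tested. A fit without 1 sample leaves 1 in its group, which then adds nothing to the spread. Counts of alternatives and of all genes include such fits. The highest all-gene count in cystic duct came from the fit without cystic duct replicate 1. All-gene counts over 20 settings ran from 0 to 7539 in cystic duct, 1 to 280 for genotype over both strains, 0 to 374 in ICR, 0 to 103 in B6, 0 to 268 for the difference between strains and 8 to 1602 for strain. Signal over background was not used here, so the dim members have no bound.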
